A study of Homo sapiens with 4 samples.

Results

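The desmosome genes are the 10 genes that encode the main parts of the desmosome, the junction that ties the keratin filaments of one epithelial cell to those of the next. They are the cadherins DSC2, DSC3, DSG2 and DSG3, the armadillo proteins of the plaque JUP, PKP1, PKP2 and PKP3, desmoplakin (DSP) and the tetraspan membrane protein PERP. They were chosen by name, 10 of the 19970 coding genes of GENCODE release 44. For each gene, all peaks that met the gene body or the 50 kb on either side were taken. The Dox cells were MCF10A cells transduced with tet-inducible TAZ-4SA, a constitutively active form of TAZ, and given 0.05 µg/mL doxycycline for 72 h. The No Dox cells were the same transduced cells without doxycycline, so both conditions carry the transgene. MCF10A is an immortalised line of non-tumorigenic mammary epithelial cells, and ATAC-seq marks open chromatin by the sites where a transposase can insert adapters. Each condition had 2 biological replicates that were pooled before peaks were called, so there are 4 samples but 2 peak lists, and no value below has a replicate error or a test between conditions. Intervals of shares are exact (Clopper-Pearson) 95% intervals, which cover counting error only and treat neighbouring regions as independent. Every dose of doxycycline came with the transgene, so an effect of doxycycline itself and one of TAZ-4SA cannot be told apart.

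In a desmosome, desmogleins and desmocollins bind their partners on the neighbouring cell, and their tails hold plakoglobin (JUP) and the plakophilins (PKP1 to PKP3). Desmoplakin joins this plaque to keratin filaments. The junction is typical of epithelia under mechanical load, such as the basal layer of skin and breast, and it is loosened when epithelial cells take on a mesenchymal form. TAZ is a co-activator of the Hippo pathway that reaches DNA mainly through TEAD factors, often at sites that also hold AP-1. The comparison of the 2 conditions asks where chromatin at these genes was called open with TAZ-4SA induced, without it, or in both.

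The Dox list held 84353 peaks and the No Dox list 117740. The total number of reads behind each list is not given in the sources used here. The fold enrichment of a peak is its height over a background set for the whole list. The lowest fold was 2.71 in Dox and 2.54 in No Dox, and the median was 4.07 in Dox and 3.81 in No Dox. A rank of a fold is therefore taken within its own list. Merging the peaks of both lists gave 149858 union regions, with a peak in Dox alone in 22.3% (called Dox-only), in No Dox alone in 45.3% (No-Dox-only) and in both lists in 32.4% (shared). Of 9 marker genes of mammary basal epithelium, 7 had a promoter peak in both lists and TP63 and KRT14 had one in neither. Promoter peaks were absent from both lists for 5 of 6 immune markers (CD14 had one in both), for 4 of 5 endothelial markers (KDR had one in both) and for 3 of 4 fibroblast markers (PDGFRA had one in Dox alone).

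Most desmosome genes kept an open promoter in both conditions. Taking a promoter as the 1 kb on either side of the canonical transcription start site (TSS), 8 of the 10 genes had a promoter peak in both lists, against 60.1% of all coding genes. PKP1 had one in Dox alone, as 5.58% of coding genes did. DSG3 had one in No Dox alone, as 3.84% of coding genes did. In a pool of cells, fewer cells with an open site and a less open site in each cell cannot be told apart. The promoter peak of PKP2, the plakophilin that is also expressed in heart, was the highest of the 10 in each list, at a fold of 25.8 in Dox and 35.6 in No Dox. The DSC3 promoter had a fold of 13.8 in Dox and 17.8 in No Dox, and the DSG2 promoter one of 13.1 in Dox and 14.4 in No Dox. The lowest promoter fold of the 10 genes in Dox was that of PKP1, at 3.62, and the lowest in No Dox was that of DSG3, at 5.08.

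The 5 other promoters with a peak in both lists lay between these. The fold was 8.82 in Dox and 7.63 in No Dox at DSC2, and 10.4 in Dox and 10.8 in No Dox at DSP. At JUP, whose product plakoglobin also works in adherens junctions, it was 11.3 in Dox and 8.69 in No Dox. PKP3 had 7.91 in Dox and 7.84 in No Dox, and PERP 7.46 in Dox and 8.26 in No Dox. The fold was higher in Dox at 3 of the 8 shared promoters and lower at 5. To set aside the different scale of the lists, each fold was also given its percentile rank among all shared regions of its list. The rank in Dox minus that in No Dox ran from -1.99 points at PERP to 12.3 points at JUP, so none of the 8 promoters moved by 20 points or more. Of all shared regions, 15.3% rose and 15.1% fell by that much. DSC3, DSG2, DSP and PKP2 already ranked at 94.4, 90.7, 83.1 and 99.4 in No Dox, so they could not rise by 20 points. Ranks also lie close together among high folds, and the lower Dox fold of PKP2 gave a difference of only -0.44 points.

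**Figure D1:**
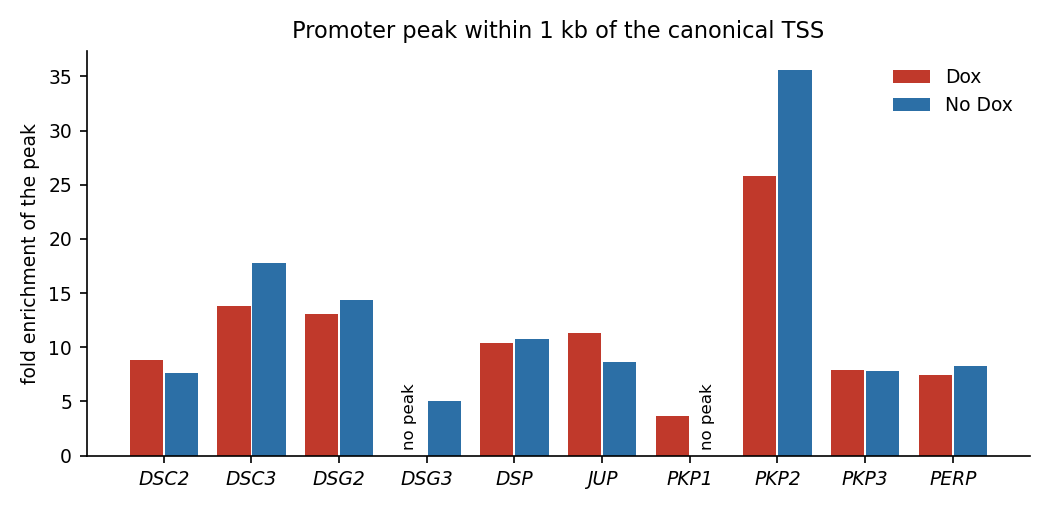
Fold enrichment (vertical axis, from 0) of the promoter peak of each of the 10 desmosome genes in the Dox list (red, left bar) and the No Dox list (blue, right bar), with 1 pooled list per condition and no error bars. The PKP2 bars are the highest, at 25.8 in Dox and 35.6 in No Dox, and DSG3 has no Dox peak and PKP1 no No Dox peak.

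The DSG3 promoter was the one desmosome promoter called without doxycycline alone. DSG3 encodes the desmoglein of basal keratinocytes that is the target of antibodies in pemphigus vulgaris. Its No Dox peak lay at chr18:31447374-31447792 (hg38), was 419 bp wide and had its summit 32 bp upstream of the only annotated TSS, at position 31447741 on the plus strand. Its fold was 5.08 and the −log10 of its q-value was 9.22. The Dox list had no peak within 1 kb, but both lists had peaks in the first intron. One, at chr18:31449880-31450736, had a fold of 3.84 in Dox and 4.24 in No Dox. The other, at chr18:31454071-31454735, had one of 7.46 in Dox and 6.99 in No Dox. The calls therefore differed at the start of the gene and not in its intron.

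The PKP1 promoter was the one called with doxycycline alone. PKP1 encodes the plakophilin of stratified epithelia, whose loss in people causes skin fragility. Its Dox peak lay at chr1:201283237-201284713, was 1477 bp wide, had its summit 133 bp upstream of the canonical TSS at position 201283506 on the plus strand, and had a fold of 3.62 and a −log10 q-value of 3.97. That is below the median fold of the Dox list. When every annotated TSS was counted, PKP1 changed its class. A No Dox peak of fold 3.39 began 610 bp from the start of a non-coding transcript far inside the gene, so 9 of 10 genes then had a promoter peak in both lists (65.3% of coding genes) and DSG3 alone remained in No Dox alone (3.92% of coding genes).

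The promoter sequences of both genes are shown because their calls differed between conditions. They are the RefSeq sequences (GRCh38.p14, the assembly of hg38) of the 250 bases before and the 20 bases from the TSS, read 5′ to 3′ along the gene. A GGGCGG box, to which SP and KLF factors bind, is in capitals. Both stretches lie wholly within the peak described.
DSG3 promoter, chr18:31447491-31447760, plus strand: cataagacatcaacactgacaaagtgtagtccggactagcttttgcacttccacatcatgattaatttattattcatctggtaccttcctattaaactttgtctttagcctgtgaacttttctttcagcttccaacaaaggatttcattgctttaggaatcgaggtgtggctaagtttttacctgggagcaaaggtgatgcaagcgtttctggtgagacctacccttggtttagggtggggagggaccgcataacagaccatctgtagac
PKP1 promoter, chr1:201283256-201283525, plus strand: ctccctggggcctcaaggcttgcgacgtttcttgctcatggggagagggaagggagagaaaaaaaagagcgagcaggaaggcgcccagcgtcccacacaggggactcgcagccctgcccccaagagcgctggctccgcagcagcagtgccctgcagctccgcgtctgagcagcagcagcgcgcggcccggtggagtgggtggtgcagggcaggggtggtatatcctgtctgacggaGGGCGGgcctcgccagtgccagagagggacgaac
The DSG3 promoter had a GC content of 42.6% and 4 CpG dinucleotides, and 82.4% of the 34961 RefSeq promoters had a higher GC content. The PKP1 promoter had 67.0% GC and 18 CpG dinucleotides, with GGGCGG starting 14 bases before the TSS. The DSG3 promoter is thus the AT-rich one of the pair.

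RefSeq promoters were found for 8 of the 10 genes, all but PKP2 and PKP3. A gene was counted where any of its RefSeq promoters qualified, and DSC2 and JUP each have a further promoter. The shares of all promoters are instead per promoter, so the counts of genes are not strictly like them. GC content was above the median of all promoters (58.1%) for 7 of these 8 genes, DSG3 being the exception. GGGCGG, sought on both strands, occurred in 6 of the 8 (DSC2, DSG2, DSP, JUP, PERP and PKP1) and in 43.7% of all promoters. The AP-2 motif GCCNNNGGC occurred in 3 (DSC2, DSG2 and JUP) and in 20.9% of all promoters. The AP-1 motif TGACTCA or TGAGTCA occurred in PERP alone, 101 bases before its TSS, and in 4.57% of all promoters. None of the 8 held the TEAD motif ACATTCC or GCATTCC, which 6.13% of all promoters held, or the TATA box TATAAA, which 11.05% held. These are letter matches in a short window.

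With the promoters included, the 10 windows held 123 union regions, made up of 56 Dox-only regions, 13 No-Dox-only regions and 54 shared ones. The Dox-only regions made up 45.5% of the 123, against 22.3% of all union regions, and 81.2% of the 69 regions called in 1 condition (interval 69.9 to 89.6%), against 33.0% over the genome and 39.7% over the windows of all coding genes. This balance came from few genes. The PKP1 window held 33 of the 56 Dox-only regions and the PKP3 window 13. Without PKP1 the share was 74.2% (23 of 31). Without PKP1 and PKP3, left out together once their counts were known, it was 58.8% (10 of 17, interval 32.9 to 81.6%). A region was called strong where its peak reached the median fold of its own list, and 16 Dox-only regions against 6 No-Dox-only regions did so. That is a Dox-only share of 72.7%, against 33.05% over the genome and 37.7% over the windows of all coding genes. Without PKP1 the strong regions were 6 Dox-only and 5 No-Dox-only, and without PKP1 and PKP3 they were 4 and 5.

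**Figure D2:**
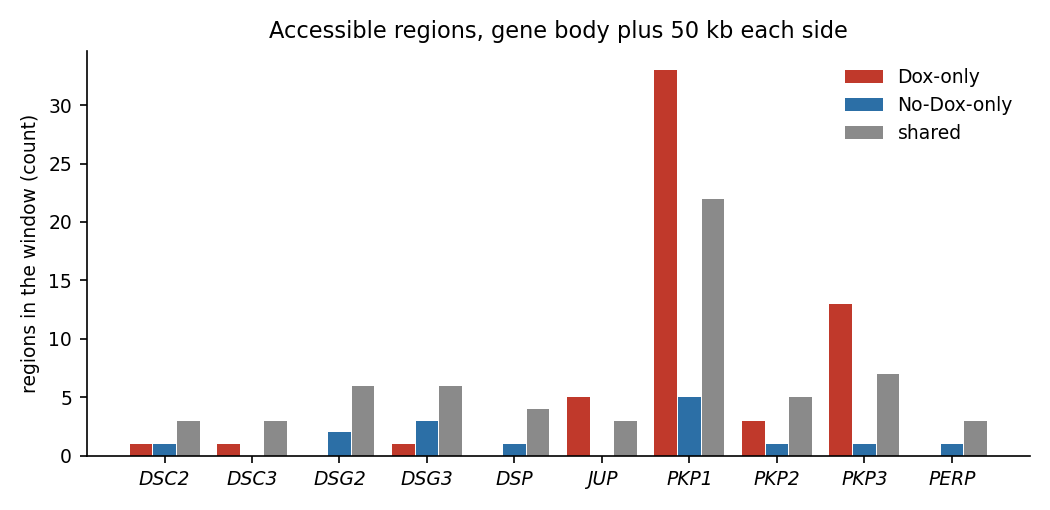
Number of union regions (vertical axis, from 0) in the window of each gene, gene body plus 50 kb on either side, split into Dox-only (red), No-Dox-only (blue) and shared (grey). PKP1 with 33 and PKP3 with 13 hold most Dox-only regions, and no other gene has more than 5.

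The groups of desmosome proteins differed in their counts. The cadherin windows held 2 regions in Dox alone, 4 in No Dox alone and 10 in both. Their Dox-only share of condition-only regions was 33.3% (interval 4.33 to 77.7%), against 33.0% over the genome. The armadillo windows held 54 in Dox alone, 7 in No Dox alone and 37 in both. Of the 54, 33 were in the PKP1 window, 13 at PKP3, 5 at JUP and 3 at PKP2. The armadillo count was thus mostly that of PKP1 and PKP3. The DSP window had 0 in Dox alone, 1 in No Dox alone and 4 in both, and the PERP window 0, 1 and 3 in the same order. The windows of DSC2 and DSC3 overlap and share 3 regions, and those of DSG2 and DSG3 share 8, so the cadherin genes are not independent of each other. Only 77 of the 123 regions had the TSS of a desmosome gene as their nearest canonical coding TSS. They were 30 of the 56 Dox-only regions (53.6%), 11 of the 13 No-Dox-only ones (84.6%) and 36 of the 54 shared ones (66.7%). Among them the Dox-only share of condition-only regions was 73.2% (30 of 41), a setting added after the values were seen. A fold under 4 was found for 40 of the 56 Dox-only regions (71.4%, against 70.5% of all Dox-only regions) and for 8 of the 13 No-Dox-only regions (61.5%, against 77.4%).

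Among the cadherin genes, which lie in 1 cluster on chromosome 18, strong regions were as many in Dox alone as in No Dox alone. The 2 Dox-only regions were a peak of fold 4.52 in intron 1 of DSC3 (chr18:31037784-31038032) and one of fold 4.07 that lay 17.7 kb upstream of DSG3 (chr18:31429762-31430025). The strong No-Dox-only regions were the DSG3 promoter and an intergenic peak of fold 3.81 between DSG3 and DSG2 (chr18:31490568-31491030). The weaker No-Dox-only regions were in intron 1 of DSG2, with a fold of 3.18, and upstream of DSC2, with a fold of 2.97. A distance of 2.64 kb from the intergenic No-Dox-only peak, a shared region at chr18:31487467-31487930 had a fold of 8.14 in Dox and 5.51 in No Dox, a rank 24.3 points higher in Dox. It was the only shared cadherin region to move by 20 points, and these neighbours between DSG3 and DSG2 thus went opposite ways.

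DSP, the link to keratin filaments, had no Dox-only region. Its single condition-only region lay in intron 4 at chr6:7561503-7561933 and had a fold of 5.30 in No Dox, above the median of that list. The 4 shared regions of the DSP window moved by less than 5 points of rank, among them a region 35.7 kb upstream of the canonical TSS with a fold of 11.8 in Dox and 16.1 in No Dox. PERP, a gene activated by p53 and p63, also had no Dox-only region. Its No-Dox-only peak of fold 4.87 lay in intron 1, at chr6:138105433-138105959 and 1.46 kb from the TSS. Its 3 shared regions all ranked lower in Dox. The one just beyond the 3′ end of PERP, at chr6:138086624-138087104, fell furthest of all 54 shared regions, with a fold of 3.39 in Dox and 5.93 in No Dox and a rank lower by 44.4 points in Dox (difference -44.4).

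PKP2 carried the strongest condition-only region of any desmosome gene. It lay at chr12:32917091-32917611, 20.3 kb upstream of the TSS, and had a fold of 10.6 in No Dox and no peak in Dox. Shared regions 1.67 kb and 2.84 kb further upstream, at chr12:32919285-32920131 and chr12:32920456-32921850, had folds of 5.43 and 6.10 in Dox, against 7.20 and 7.41 in No Dox. The 3 Dox-only regions of the PKP2 window had lower folds. The strongest was a peak of fold 4.75 in intron 1 (chr12:32893319-32893744), 3.03 kb inside the gene, and the others had folds of 3.39 and 2.71. The PKP2 window covered 6.57 kb with peaks in Dox and 7.84 kb in No Dox.

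The windows of JUP and PKP3 had more open chromatin called in Dox. The JUP window had 5 Dox-only regions, 0 in No Dox alone and 3 in both, and peaks covered 5.96 kb of it in Dox and 2.78 kb in No Dox. Its strong Dox-only region had a fold of 4.97 and lay 6.22 kb upstream of the canonical TSS (chr17:41792934-41793529). All 3 shared regions of the JUP window ranked higher in Dox, by 12.3 to 18.5 points. The one that rose by 18.5 points covered exon 1 of the neighbours P3H4 and FKBP10. The shared region at chr17:41800688-41801873 was also nearest to the start of P3H4. Among the Dox-only regions, chr17:41810855-41811381 lay over P3H4 exons and chr17:41836047-41836284 at exon 1 of NT5C3B. Peaks covered 14.7 kb of the PKP3 window in Dox and 4.63 kb in No Dox. Of the 13 Dox-only regions at PKP3, 1 lay in the gene body, over exon 2 (chr11:396018-396707, fold 3.84), and most of the rest were nearer to the starts of B4GALNT4, SIGIRR or ANO9. The strong ones, of fold 4.97 at ANO9 exon 1 and 4.07 in B4GALNT4 intron 1, belong by position to these neighbours. PKP3 itself kept near-equal promoter folds. The 3 shared regions of the window that ranked at least 20 points higher in Dox were also outside the gene. One, at chr11:355587-356358, lay between genes on the side of B4GALNT4 and had a fold of 6.10 in Dox and 3.81 in No Dox. The region at exon 1 of PTDSS2, chr11:450114-451776, had 4.52 in Dox and 2.97 in No Dox, and that over SIGIRR exons, chr11:405850-407887, had 6.33 in Dox and 4.66 in No Dox.

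PKP1 had the densest window. It held 60 regions, 40.1 per 100 kb, and only 0.361% of coding genes had a denser window. Peaks covered 46.6 kb of it in Dox and 22.7 kb in No Dox. The 33 Dox-only regions had folds of 2.71 to 4.97 and were spread along the window, with 8 upstream of the gene, 13 in the gene body and 12 downstream of it. The No-Dox-only regions were 1 upstream, 3 in the body and 1 downstream. Of the Dox-only regions 10 were strong, 4 of them in the body between exon 4 and exon 8. The one strong No-Dox-only region, of fold 5.30, lay 3.44 kb upstream of the canonical TSS (chr1:201279392-201280071).

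The highest peak upstream of PKP1 had near-equal folds in the 2 conditions. It lay at chr1:201274759-201276189, 7.32 kb upstream of the canonical TSS, with a fold of 24.9 in Dox and 25.4 in No Dox. The largest differences among shared regions of the window lay beyond the 3′ end of PKP1. An intergenic region at chr1:201353024-201354098 had a fold of 33.5 in Dox and 8.90 in No Dox. The region at exon 1 of the neighbour TNNT2, which encodes cardiac troponin T, lay at chr1:201375622-201378694 and had a fold of 18.1 in Dox and 5.51 in No Dox, a rank 45.6 points higher in Dox. Of the 11 shared regions that ranked at least 20 points higher in Dox, 7 were downstream of the gene, 2 in its body and 2 upstream. In the body these were neighbouring regions of intron 2, with folds of 5.65 and 7.69 in Dox and 4.02 and 4.87 in No Dox. They lay at chr1:201307427-201308894 and chr1:201309073-201310192. The upstream ones, at chr1:201258597-201261226 and chr1:201277313-201277727, had folds of 10.2 and 3.84 in Dox, against 6.78 and 2.75 in No Dox. The 5 other downstream ones, which began at positions 201347773, 201356147, 201358574, 201366238 and 201381365, had folds of 4.29 to 5.88 in Dox and 2.97 to 4.24 in No Dox. Another region of intron 2, at chr1:201295666-201296686, went the other way, with a fold of 4.07 in Dox and 5.72 in No Dox and a rank difference of -24.6 points.

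**Figure D3:**
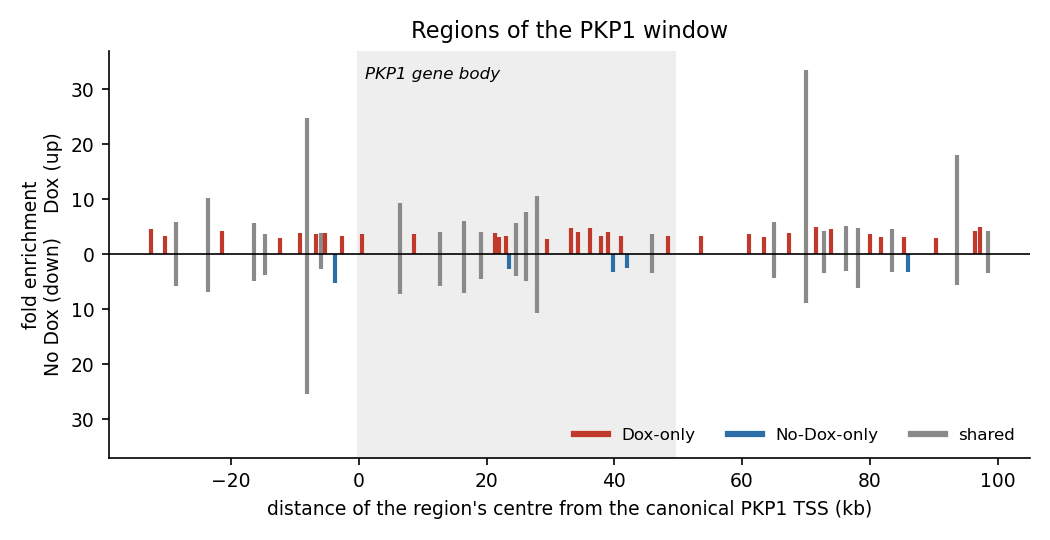
Fold enrichment of each of the 60 regions of the PKP1 window against the distance of its centre from the canonical TSS in kb, with the Dox fold drawn upward and the No Dox fold downward. Red lines are Dox-only, blue lines No-Dox-only and grey lines shared regions, and the shaded band is the gene body; the grey line near 70 kb reaches 33.5 in Dox and 8.90 in No Dox.

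Over all 54 shared regions, the rank in Dox minus that in No Dox had a median of 4.26 points (exact order-statistic interval 0.66 to 12.3). Over the genome the median was -0.31. The interval treats the regions as independent, although 22 came from the PKP1 window and 7 from the PKP3 window. It therefore does not measure the spread between desmosome genes. The rank was at least 20 points higher in Dox in 15 of them (27.8%, against 15.3% of all shared regions) and at least 20 points lower in 2 (3.70%, against 15.1%). Of the 15, 11 were in the PKP1 window and 3 in the PKP3 window. Among the 25 shared regions of the other 8 genes, 1 rose and 1 fell by 20 points and the median was 0.25. The shift was thus a matter of 2 windows.

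**Figure D4:**
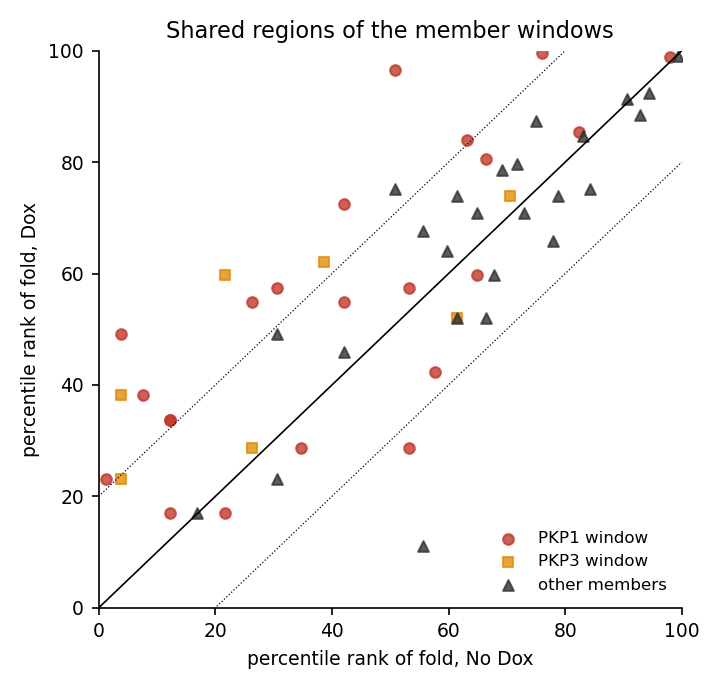
Percentile rank of the fold of each of the 54 shared regions among all shared regions, in Dox (vertical axis) against No Dox (horizontal axis), for PKP1 (red circles), PKP3 (orange squares) and the other desmosome genes (dark triangles). The solid line marks equal rank and the dotted lines 20 points either way; 15 regions lie on or above the upper line and 2 below the lower one.

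The surroundings of the windows moved with these counts. The Dox-only share of condition-only regions was 86.8% in the PKP1 window and 85.4% in the 1 Mb on either side of it, where 276 regions were Dox-only and 47 No-Dox-only. At PKP3 the shares were 92.9% in the window and 95.6% in the flanks, and at JUP 100% (5 of 5) in the window and 96.9% in the flanks. The 3 windows with most Dox-only regions were thus like their flanks. At PKP2 the share was 3 of 4 regions in the window and 19.4% in the flanks. At PERP it was 0% (0 of 1) in the window and 66.7% in the flanks, and the cadherin and DSP flanks had shares of 31.9 to 37.8%. Over the 10 genes the window's share was above that of its flanks in 5 and below it in 5.

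Base composition went with the class of the calls, and position on chromosome 1 with their number. When all coding genes were split into 5 equal groups by the GC content of their windows, the Dox-only share of condition-only regions was 22.01%, 34.3%, 43.9%, 60.3% and 74.95% from the lowest to the highest GC. JUP (53.4% GC) and PKP3 (60.1%) were in the highest group, PKP1 (50.2%) in the next, DSP, PKP2 and DSG2 in the second lowest and PERP, DSC2, DSC3 and DSG3 in the lowest. The group shares pool regions, so genes with many regions weigh more. The median share of single genes with a condition-only region was higher, at 76.2% in the group of PKP1 and 92.3% in the highest group. Over all such coding genes it was 57.9%. The share of PKP3 (92.9%) was thus close to the median gene of its group, and those of PKP1 (86.8%) and JUP (100%) were above theirs. On chromosome 1, union regions were 19.8 per 100 kb from position 140 Mb on, where PKP1 lies, against 4.40 per 100 kb before that position and 4.94 over the genome. The Dox-only share was 39.2% from 140 Mb on and 39.7% before, so the 2 stretches differed in density and hardly in their average share. Within the stretch from 140 Mb on the share varied. It was 70.4% in the bin of 10 Mb centred on PKP1, 16.7% in the bin before it and 37.3% in the bin after it. Of the 983 coding genes from 140 Mb on, 4.68% had a denser window than PKP1. Copy number was not measured in these files, and folds were heights over 1 background for a whole list. The part of base composition, of the stretch of chromosome 1 or of the neighbouring genes in the counts at PKP1, PKP3 and JUP was not tested.

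**Figure D5:**
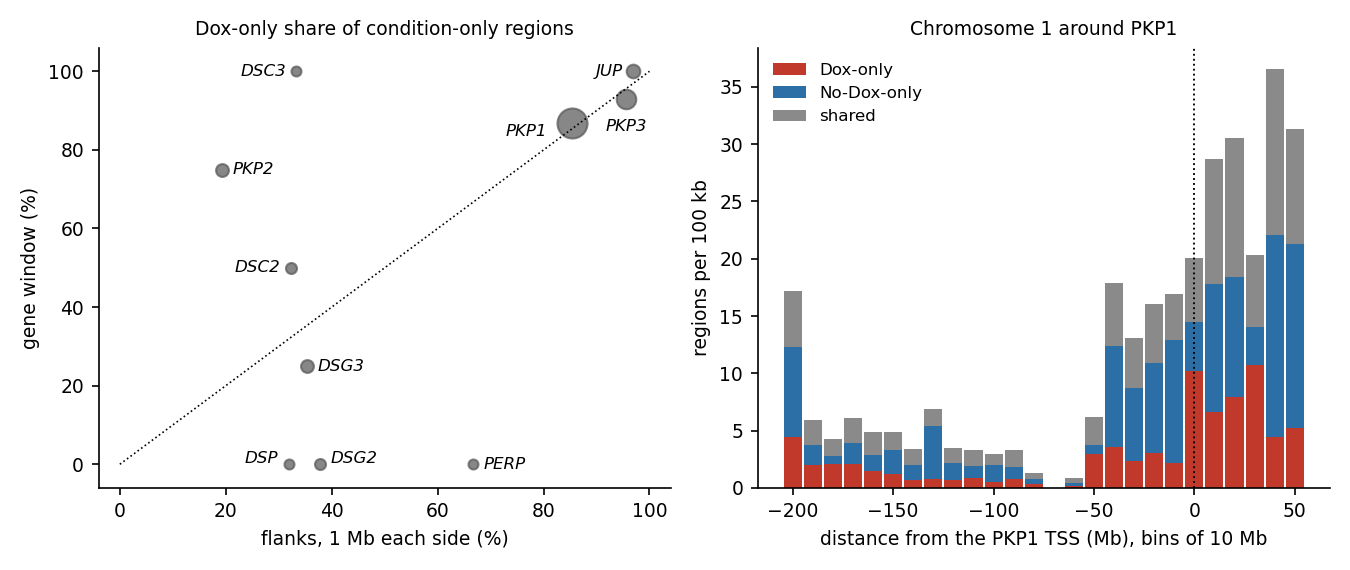
Left, Dox-only share of condition-only regions in each gene's window (vertical axis, %) against that in the 1 Mb on either side (horizontal axis, %), with point area growing with the number of condition-only regions and a dotted line of equal share. Right, union regions per 100 kb in bins of 10 Mb along chromosome 1 by distance from the PKP1 TSS in Mb, stacked as Dox-only (red), No-Dox-only (blue) and shared (grey); the bin on PKP1 holds 20.1 regions per 100 kb, of which 1021 are Dox-only and 430 No-Dox-only.

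Motif letters were sought on both strands in the 100 bp on either side of the summit, taken from the stronger peak where a region had several. The TEAD motif (ACATTCC or GCATTCC) was in 3 of the 56 Dox-only regions (5.36%, interval 1.12 to 14.9%), against 13.6% of all Dox-only regions of the genome. It was in 1 of the 13 No-Dox-only regions (7.69%, against 5.72%) and in 4 of the 54 shared regions (7.41%, against 10.0%). The interval of the Dox-only share held the genome's value, so a difference was not detectable at this number of regions. The 3 Dox-only regions with TEAD letters were in the bodies of PKP1, PKP3 and JUP, all with folds under 4, and the No-Dox-only one was the intron 4 peak of DSP.

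The AP-1 motif (TGACTCA or TGAGTCA) was in 4 of the Dox-only regions (7.14%, against 8.12% over the genome), in 1 of the No-Dox-only regions (7.69%, against 11.7%) and in 12 of the shared regions (22.2%, interval 12.04 to 35.6%, against 18.4%). Of the 12 shared ones, 5 were among the 10 shared cadherin regions, including both intron 1 regions of DSG3 and the region between DSG3 and DSG2 that ranked higher in Dox. The PERP promoter and the PERP region that ranked lowest in Dox against No Dox held AP-1 letters as well. The RUNX motif TGTGGT was in 10 of the 56 Dox-only regions (17.9%, against 16.3%) and in 4 of the 13 No-Dox-only regions (30.8%, interval 9.09 to 61.4%, against 15.1%). It was in 4 of the 54 shared regions (7.41%, against 14.4%) and in 18 of all 123 regions (14.6%, against 15.1%). The GRHL motif AACNNGTT was in 2 of the 123 regions. The relaxed p53/p63 consensus was in 0 of 123, which allows a share of up to 2.95%, and over the genome it was in 0.48%. CCTTACA or CCTTACG, the TEAD motif read backwards as a control, was in 2 of the 123 (1.63%, against 2.19%).

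The sites that these counts turn on are shown with 25 bases on either side, on the plus strand of hg38. Only the motif named for each stretch is in capitals. They are the TEAD letters of every condition-only region, the AP-1 letters of the strong PKP1 region over exon 7, and the RUNX letters of the strongest condition-only region, that upstream of PKP2.
DSP intron 4, No-Dox-only, TEAD, chr6:7561788-7561844: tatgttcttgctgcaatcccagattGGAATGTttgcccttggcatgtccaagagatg
PKP1 body near exon 10, Dox-only, TEAD, chr1:201324658-201324714: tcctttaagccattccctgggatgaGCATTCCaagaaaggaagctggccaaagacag
PKP3 body near exon 2, Dox-only, TEAD, chr11:396292-396348: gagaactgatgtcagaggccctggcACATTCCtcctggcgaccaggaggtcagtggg
JUP intron 1, Dox-only, TEAD, chr17:41777266-41777322: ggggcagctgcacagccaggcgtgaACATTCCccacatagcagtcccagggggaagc
PKP1 body near exon 7, Dox-only, AP-1, chr1:201319148-201319204: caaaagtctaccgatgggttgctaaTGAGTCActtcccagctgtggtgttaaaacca
PKP2 upstream, No-Dox-only, RUNX, chr12:32917436-32917491: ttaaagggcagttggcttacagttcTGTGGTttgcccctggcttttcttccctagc
The DSP site lies 5 bp from the summit and reads GGAATGT on the plus strand, the reverse complement of ACATTCC. The centre of the PKP3 site is 2 bp from its summit, that of the PKP1 TEAD site 37 bp, that of the JUP site 50 bp, and that of the AP-1 site of PKP1 11 bp. The stretch of PKP1 near exon 7 also holds RUNX letters (TGTGGT), left in lower case, with their centre 4 bp from the summit. The RUNX site upstream of PKP2 lies 82 bp from its summit, near the edge of the searched window. The TEAD letters of DSP and PKP3 are thus the closest of the 4 to a summit.

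A second list held 14 genes of the wider junction and of the keratin and envelope system: other cadherins and plaque genes (DSC1, DSG1, DSG4, PKP4, CTNNB1 and CDH1), the plakins PPL and EVPL, the keratins KRT5, KRT14, KRT6A and KRT17, and the envelope genes CDSN and TGM1. Their windows held 91 regions, 6 of them also in desmosome windows. Of the 91 regions, 32 were Dox-only, 14 No-Dox-only and 45 shared. The Dox-only share of condition-only regions was 69.6% (interval 54.2 to 82.3%). That share was 33.0% over the genome and 39.7% over the windows of all coding genes. Some windows of this list overlap, as those of KRT5 and KRT6A do, and each region was counted once. By the canonical TSS, a promoter peak was called in both lists for 7 of the 14 genes, against 60.1% of coding genes. KRT6A, a keratin of activated epithelium, had one in Dox alone, with a fold of 4.29 (5.58% of coding genes), and TGM1, a transglutaminase that cross-links the cornified envelope, had one in No Dox alone, with a fold of 4.24 (3.84% of coding genes). When any TSS was counted, TGM1 had one in both lists. The other 5 of the 14 had none in either list, as 30.5% of coding genes did: KRT14, CDSN and the cadherins of upper epidermal layers DSC1, DSG1 and DSG4. The cadherin cluster thus had open promoters called at DSC2, DSC3 and DSG2 in both conditions, at DSG3 without doxycycline alone, and at DSC1, DSG1 and DSG4 in neither.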

How the data were processed

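Read pairs were aligned to hg38 by the authors with BWA, the 2 replicates of each condition were pooled, and peaks were called with MACS2 at a set false discovery rate, so each condition has 1 list (versions not given in the sources used here). The deposited fold of a peak is the authors' ratio of the pooled signal at the summit to the background, and within a list all folds were whole multiples of a single step, 0.226 for Dox and 0.212 for No Dox (tolerance 0.01 of that step). The −log10 of the q-value is the authors' value too. No peak ran past a chromosome end of hg38, and 32 Dox and 28 No Dox peaks outside chromosomes 1 to 22 and X were left out.

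Peaks of both lists that shared 1 bp or more, or abutted, were joined into union regions with Python 3.11.15 (numpy 2.4.6, pandas 2.3.3), and intervals were computed with scipy 1.17.1. Genes, exons and TSSs came from GENCODE release 44. Sequences were read with pysam 0.24.0 from hg38 after indexing with samtools 1.23.1, and promoter sequences are RefSeq's. Figures were drawn with matplotlib 3.10.9. The steps were tested on simulated data. The text names all 10 genes, their promoter regions, their strongest condition-only regions and the shared regions that moved by 20 points or more. Where a gene had more than 5 strong regions these are counted. The alternatives were 2 stricter q-value limits, lists of equal length, other windows, promoter distances and transcript sets, other overlap rules and motif windows, and members left out. The members and lists were chosen with earlier results of these data known. Comparisons with flanks, GC content and stretches of chromosome 1 were added after the values were seen. Read counts per sample were not analysed here, so no test between conditions was made.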

Additional observations from a re-analysis of the deposited data

How the results depend on the processing

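No paired analysis was possible because each deposited list pools both replicates, and for the same reason no replicate could be left out. The Dox-only share of condition-only regions stayed within the interval of its main value (81.2%) under all alternatives but one, the lowest of the others being 72.0% in the gene bodies alone. The exception was leaving out PKP1 and PKP3, chosen after the values were seen, which gave 58.8%. The median difference of rank (4.26 points) was 2.01 without PKP1, 2.34 in the gene bodies alone, 1.24 over regions whose nearest TSS is that of a desmosome gene (added after the values were seen), 0.25 without PKP1 and PKP3, and -1.25 when folds were ranked among all peaks of a list, a scale on which the median of all shared regions was -5.03. Promoter calls depended on the TSS used. The number of genes with a promoter peak in Dox alone was 1 (PKP1), not 0, with the canonical TSS only, with coding transcripts only and within 100 bp of a TSS. It was also 1 (PKP1) at a q-value of 1e-05, but through a Dox peak of −log10 q-value 7.48 beside a non-coding transcript start inside the gene, since the canonical promoter peak (3.97) is lost at that limit. The number with one in No Dox alone was 0, not 1, within 3 kb, where the nearer intron 1 region of DSG3 counts. In the gene bodies alone, TEAD letters were in 16.7% (3 of 18) of the Dox-only regions, and in whole peaks in 12.5% (7 of 56). AP-1 letters were in 0% of the No-Dox-only regions of the gene bodies (0 of 7) and of lists of equal length (0 of 8), but in 30.8% (4 of 13) when sought in whole peaks and in 28.6% (2 of 7) at a q-value of 1e-05. With 1 pooled list per condition, a peak missing from a list may lie just under its threshold, and few regions per gene limit every share.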
